A study of Mus musculus with 12 samples.

Results

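The 38 genes described here are a named set from the epithelium of the mouse uterus: keratins and surface proteins of simple epithelium, epithelial transcription factors, membrane serine proteases with their inhibitors, hemidesmosome parts and matrix receptors, desmosome parts and plakins, tight junction proteins, and proteins of cell polarity and vesicle sorting. The genes were listed by symbol, and each was measured by 1 probe, the one with the highest mean among its probes that were detected. A probe counted as detected with a detection p-value below 0.05 on at least 3 of the 12 arrays. Of the 38 genes, 37 had a probe with 1 symbol in the platform annotation and 32 had a detected probe, out of 12194 genes tested in all. Of these 32, 26 were detected on all 12 arrays, and Cd24a, Crb3, Muc4, Prom1, Pkp1 and Cgn on 4 to 11 of them.

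RNA came from 12 whole uteri of C57BL/6 female mice aged 2 months, with 1 Illumina bead array per uterus and 3 uteri in each of 4 groups. The Cdh1_P53_cKO group was labelled as knock-out for both Cdh1 and P53, the Cdh1_cKO group for Cdh1 alone and the P53_cKO group for P53 alone, and the CO group was wild type for both. Cdh1 encodes E-cadherin, the adhesion molecule of the adherens junction, and P53 is the product of Trp53. The sources used here do not name the recombinase, the promoter that drives it, the cells it acts in, the exons removed or the stage of the estrous cycle. In RNA of a whole organ, fewer cells of a type and less RNA per cell cannot be told apart. No label says whether the uteri of a group came from separate litters, so p-values reflect how far these particular uteri spread, which may be technical.

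Simple epithelium is a single layer of cells filled with filaments of Krt8 paired with Krt18 or Krt19. Desmosomes tie these filaments from cell to cell, through desmosomal cadherins such as Dsg2, plakophilins such as Pkp2 and Pkp3, and desmoplakin, while hemidesmosomes tie them to the basement membrane. Tight junctions seal the layer near its apical side, and complexes that hold Crb3 and Pard6b keep the apical surface apart from the basolateral one. In the uterus this layer forms the lining of the lumen and the glands, and the embryo attaches to it at implantation.

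Before any comparison, 3 uteri stood apart from the others of their group. CO replicate 3 had a higher signal than both other CO uteri for 26 of the 32 tested genes, against 39.1% of all genes, and by at least 1 on the log2 scale for 13 of the 32, against 3.11% of all genes. Cdh1_P53_cKO replicate 1 was the highest of all 12 uteri for 15 of the 32, and the oviduct gene Ovgp1 had a log2 signal of 13.20 there, against 5.43 and 5.79 in the other Cdh1_P53_cKO uteri. Cdh1_cKO replicate 3 had a log2 signal of 13.80 for Krt14, a keratin of stratified epithelium, against 6.04 and 5.61 in the other Cdh1_cKO uteri. The share of probes with a detection p-value below 0.05 was 44.3% to 47.9% per array, and a value rested on a median of 41 to 43 beads. Cdh1 itself had a log2 signal of 9.67, 8.18 and 7.36 in Cdh1_P53_cKO uteri, 9.74, 9.58 and 9.98 in Cdh1_cKO uteri, 9.26, 9.13 and 9.04 in P53_cKO uteri, against 9.71, 9.41 and 10.08 in CO uteri. The 3 Cdh1_cKO uteri lay within the CO range. Whether the probe lies inside the removed exons is unknown, so its signal does not check the genotypes, and the groups are named as labelled.

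**Figure D1:**
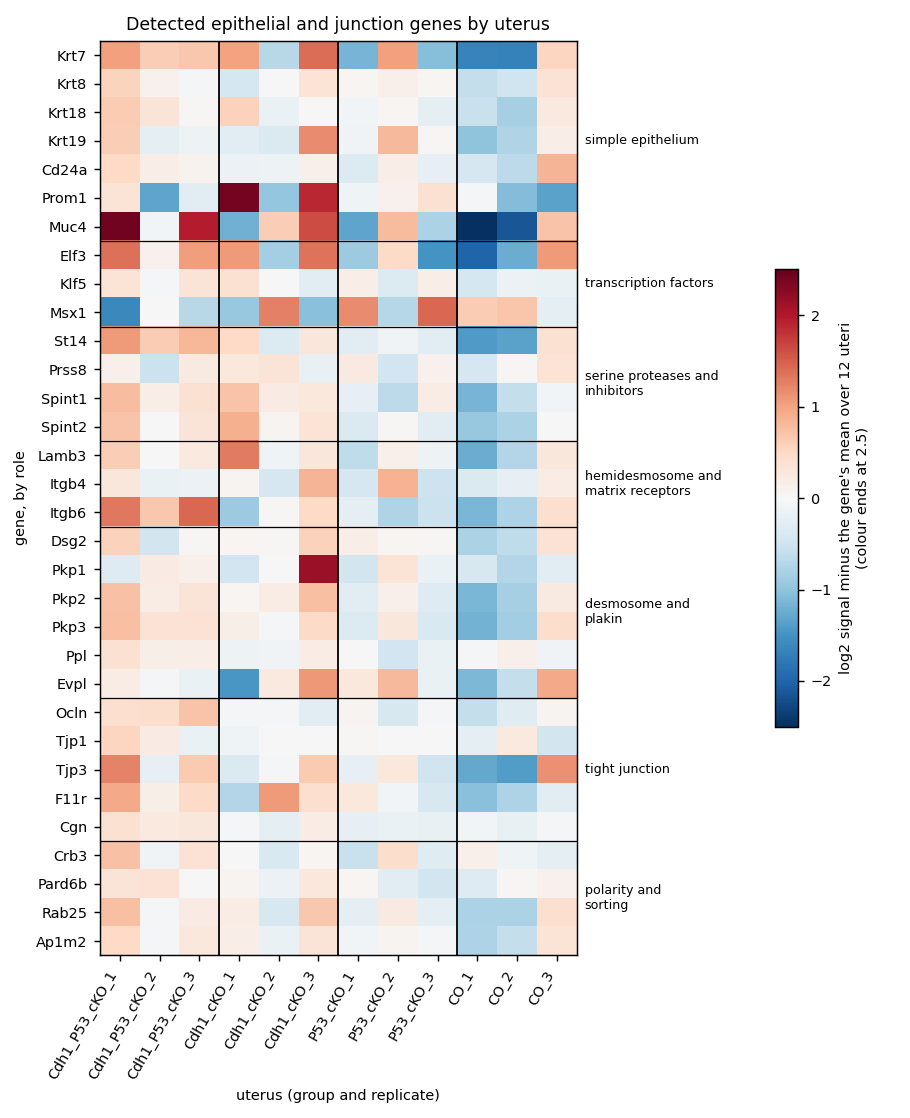
Log2 signal of the 32 tested genes (rows, grouped by role) in each of the 12 uteri (columns, grouped by genotype), with the gene's mean over the 12 uteri subtracted. The columns of CO replicates 1 and 2 are low for most genes, whereas CO replicate 3 and Cdh1_P53_cKO replicate 1 are high for most.

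Most of these epithelial genes had higher signals in Cdh1_P53_cKO uteri than in CO uteri, but no single gene passed the test. The difference, Cdh1_P53_cKO minus CO, was above 0 for 30 of the 32 genes, with a median of 0.60 on the log2 scale, whereas it was above 0 for 5433 of all 12194 genes, with a median of -0.04. In limma none of the 32 was called at an adjusted p below 0.05, while 2.73% of all genes were called. At an unadjusted p below 0.05 there were 12 of the 32, all higher in Cdh1_P53_cKO, against 17.1% of all genes in either direction. For 10 of the 32 every Cdh1_P53_cKO uterus was above every CO uterus, against 11.5% of all genes, and for none was every one below, against 14.2% of all genes. These 10 were Krt7, Klf5, St14, Spint1, Spint2, Itgb6, Ppl, Ocln, F11r and Cgn. Cgn passed the detection filter through the 3 Cdh1_P53_cKO arrays and 1 Cdh1_cKO array, so its separation from CO follows from the filter. Over the 26 genes detected on all arrays the median difference was 0.70, with 24 above 0, 10 at an unadjusted p below 0.05 and 9 without overlap, against 17.3% and 11.02% of the 9619 genes of any kind detected on all arrays.

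The single knock-outs gave smaller medians, although that of Cdh1_cKO was close to the 0.60 of Cdh1_P53_cKO. In Cdh1_cKO minus CO the difference was above 0 for 29 of the 32 genes, with a median of 0.53. Of all 12194 genes 5663 were above 0, with a median of -0.03. With 1 array left out, the median of the 32 ran from 0.29 to 0.88 in Cdh1_cKO and from 0.46 to 0.94 in Cdh1_P53_cKO. Again limma called none of the 32, against 0.0082% of all genes. An unadjusted p below 0.05 was reached by 7 of the 32, all higher in Cdh1_cKO, against 8.77% of all genes. Only Spint1 and Spint2 had every Cdh1_cKO uterus above every CO uterus, that is 2 of the 32, against 5.23% of all genes. In P53_cKO minus CO the difference was above 0 for 25 of the 32, with a median of 0.32. Of all 12194 genes 5968 were above 0, with a median of -0.01. None of the 32 was called in limma, against 0.0164% of all genes, and 0 of them had an unadjusted p below 0.05, against 2.38% of all genes. The P53_cKO and CO groups overlapped for all 32, while they did not for 9.06% of all genes. These 3 comparisons share the CO uteri.

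**Figure D2:**
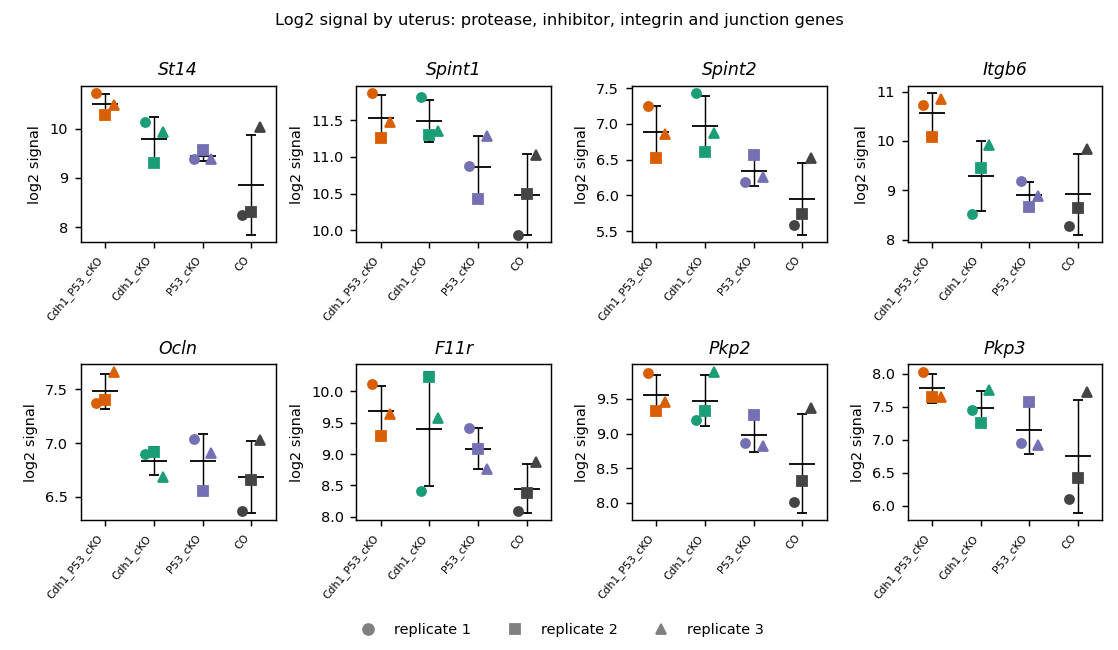
Log2 signal (vertical axis) of 8 of the genes in each uterus, with a panel per gene and the groups along the horizontal axis; markers tell replicates 1 to 3 apart, and bars show the mean and SD of 3 uteri. For St14, Itgb6 and Ocln all 3 Cdh1_P53_cKO uteri lie above the other 9, and CO replicate 3 lies above the other CO uteri for most genes.

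The membrane serine proteases and their inhibitors gave some of the clearest separations. St14 encodes matriptase, a protease anchored in the epithelial membrane, and its log2 signal was 10.71, 10.28 and 10.48 in Cdh1_P53_cKO uteri, 10.14, 9.30 and 9.92 in Cdh1_cKO uteri, 9.39, 9.56 and 9.39 in P53_cKO uteri, against 8.24, 8.31 and 10.03 in CO uteri. All Cdh1_P53_cKO uteri were above every other uterus, and CO replicate 3 was far above its group. The difference from CO was 1.63 ± 0.41 (SE) in Cdh1_P53_cKO, with an adjusted p of 0.0624 in limma, so it did not pass. It was 0.93 ± 0.41 in Cdh1_cKO, with an adjusted p of 0.557, and 0.59 ± 0.41 in P53_cKO, with an adjusted p of 0.9995. With 1 array left out, these differences ran from 1.32 to 2.22, from 0.62 to 1.51 and from 0.28 to 1.17, lowest without CO replicate 1 and highest without CO replicate 3. A second probe of St14, also detected on all arrays, gave 1.49 for Cdh1_P53_cKO minus CO, while a dim probe detected on 4 arrays gave 0.27.

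Spint1 and Spint2 encode the Kunitz-type inhibitors HAI-1 and HAI-2, which hold matriptase in check. For Spint1 the log2 signal was 11.87, 11.26 and 11.48 in Cdh1_P53_cKO uteri, 11.81, 11.30 and 11.36 in Cdh1_cKO uteri, 10.88, 10.43 and 11.28 in P53_cKO uteri, against 9.94, 10.49 and 11.03 in CO uteri. Both groups labelled as Cdh1 knock-out lay above all CO uteri, and the P53_cKO uteri overlapped with CO. Relative to CO, Spint1 differed by 1.05 ± 0.31 in Cdh1_P53_cKO, with an adjusted p of 0.102, and 1.001 ± 0.31 in Cdh1_cKO, with an adjusted p of 0.375. A second, dimmer probe gave 0.75 and 1.34 for these comparisons.

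Spint2 had a log2 signal of 7.25, 6.52 and 6.86 in Cdh1_P53_cKO uteri, 7.43, 6.61 and 6.87 in Cdh1_cKO uteri, 6.18, 6.57 and 6.26 in P53_cKO uteri, against 5.58, 5.74 and 6.52 in CO uteri. Both groups labelled as Cdh1 knock-out were again above all CO uteri, although the lowest Cdh1_P53_cKO uterus and CO replicate 3 were nearly level. Relative to CO, Spint2 differed by 0.93 ± 0.30 in Cdh1_P53_cKO, with an adjusted p of 0.129, 1.02 ± 0.30 in Cdh1_cKO, with an adjusted p of 0.346, and 0.39 ± 0.30 in P53_cKO, with an adjusted p of 0.9995. Prss8 encodes prostasin, a protease that acts with matriptase, and its group means were 9.56 ± 0.41, 9.76 ± 0.28, 9.57 ± 0.38 and 9.60 ± 0.38 (SD, n = 3 each) in Cdh1_P53_cKO, Cdh1_cKO, P53_cKO and CO uteri, with overlap between all groups.

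Among the keratins and surface proteins of simple epithelium, all 7 tested genes had a positive difference in Cdh1_P53_cKO minus CO and none was called. Krt8 encodes the type II keratin of simple epithelium, and its log2 signal was 13.30, 12.85 and 12.68 in Cdh1_P53_cKO uteri, 12.29, 12.74 and 13.08 in Cdh1_cKO uteri, 12.78, 12.85 and 12.79 in P53_cKO uteri, against 12.13, 12.23 and 13.10 in CO uteri. CO replicates 1 and 2 were the lowest of the 12 uteri and CO replicate 3 was above all but 1, and the groups overlapped. Krt8 differed from CO by 0.45 ± 0.28, 0.21 ± 0.28 and 0.32 ± 0.28 in Cdh1_P53_cKO, Cdh1_cKO and P53_cKO uteri, with adjusted p-values of 0.461, 0.865 and 0.9995.

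Krt18, its type I partner, had a log2 signal of 11.33, 11.02 and 10.73 in Cdh1_P53_cKO uteri, 11.27, 10.54 and 10.70 in Cdh1_cKO uteri, 10.64, 10.75 and 10.47 in P53_cKO uteri, against 10.14, 9.87 and 10.93 in CO uteri. CO replicates 1 and 2 were again the lowest, and CO replicate 3 was above all P53_cKO uteri. The difference from CO was 0.71 ± 0.29 in Cdh1_P53_cKO, with an adjusted p of 0.231, and 0.52 ± 0.29 in Cdh1_cKO, with an adjusted p of 0.654.

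For Krt19, another type I keratin, the log2 signal was 11.91, 11.06 and 11.17 in Cdh1_P53_cKO uteri, 11.03, 10.94 and 12.47 in Cdh1_cKO uteri, 11.21, 12.11 and 11.32 in P53_cKO uteri, against 10.29, 10.55 and 11.45 in CO uteri. It had the smallest p of the set in P53_cKO minus CO, where the difference was 0.78 ± 0.45, with an adjusted p of 0.9995. CO replicate 3 was above the lower 2 P53_cKO uteri. The difference was 0.62 ± 0.45 in Cdh1_P53_cKO, with an adjusted p of 0.544, and 0.72 ± 0.45 in Cdh1_cKO, with an adjusted p of 0.697. Without Cdh1_cKO replicate 3 the Cdh1_cKO difference was 0.22.

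Prom1 encodes prominin-1, a protein of membrane protrusions, and it varied most between Cdh1_cKO uteri, with a log2 signal of 6.33, 4.67 and 5.72 in Cdh1_P53_cKO uteri, 8.37, 5.01 and 7.86 in Cdh1_cKO uteri, 5.88, 6.10 and 6.37 in P53_cKO uteri, against 5.95, 4.90 and 4.64 in CO uteri. Replicates 1 and 3 of Cdh1_cKO were the highest of all uteri and replicate 2 was within the CO range. Prom1 differed from CO by 1.92 ± 0.76 in Cdh1_cKO, with an adjusted p of 0.4996, and 0.41 ± 0.76 in Cdh1_P53_cKO, with an adjusted p of 0.854. The first of these was 1.27 without Cdh1_cKO replicate 1 and 2.96 without replicate 2, and the second 0.04 without Cdh1_P53_cKO replicate 1 and 0.87 without replicate 2. Its interaction, Cdh1_P53_cKO minus Cdh1_cKO minus P53_cKO plus CO, was -2.46 ± 1.07, with an adjusted p of 0.9998. None of the 32 was called for the interaction, against 0.0984% of all genes, and 1 of the 32 had an unadjusted p below 0.05, against 4.78% of all genes.

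Muc4, a membrane mucin of the apical surface, was named here after its values were seen, as were Krt7, Elf3, Pkp3, Tjp3 and Ap1m2. Its log2 signal was 9.72, 7.23 and 9.28 in Cdh1_P53_cKO uteri, 6.10, 7.92 and 8.95 in Cdh1_cKO uteri, 5.99, 8.09 and 6.50 in P53_cKO uteri, against 4.69, 5.17 and 8.02 in CO uteri, and its difference from CO in Cdh1_P53_cKO was 2.78 ± 1.02, with an adjusted p of 0.187. CO replicate 3 lay above the lowest Cdh1_P53_cKO uterus, while CO replicates 1 and 2 were below all of them. Cd24a encodes a glycoprotein of the epithelial surface, and its group means ranged from 5.13 to 5.52.

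Of 5 epithelial transcription factors 3 were tested, and their differences had unlike signs. Elf3, an ETS-family factor of differentiating epithelium, had a log2 signal of 12.54, 11.27 and 12.21 in Cdh1_P53_cKO uteri, 12.23, 10.32 and 12.53 in Cdh1_cKO uteri, 10.25, 11.64 and 9.68 in P53_cKO uteri, against 9.16, 9.92 and 12.22 in CO uteri. Msx1, a homeobox factor of the uterine epithelium that declines before implantation in mice, had a log2 signal of 9.69, 11.31 and 10.61 in Cdh1_P53_cKO uteri, 10.36, 12.56 and 10.26 in Cdh1_cKO uteri, 12.48, 10.59 and 12.73 in P53_cKO uteri, against 11.93, 11.997 and 11.06 in CO uteri. The difference in Cdh1_P53_cKO minus CO was 1.57 ± 0.83 for Elf3, with an adjusted p of 0.368, and -1.12 ± 0.71 for Msx1, with an adjusted p of 0.465. With 1 array left out, the Elf3 difference ran from 0.94 without CO replicate 1 to 2.47 without CO replicate 3. That of Msx1 ran from -1.51 without Cdh1_P53_cKO replicate 2 to -0.70 without Cdh1_P53_cKO replicate 1. Other probes of Elf3 that were detected on all arrays gave 1.82 and 1.68 in Cdh1_P53_cKO minus CO. In P53_cKO minus CO they gave 0.93 and 0.49, where the probe used gave 0.09.

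Elf3 and Msx1 split the uteri in the same way, across the genotypes rather than between them. Cdh1_cKO replicate 2, P53_cKO replicates 1 and 3 and CO replicates 1 and 2 had Msx1 at 11.93 to 12.73 and Elf3 at 9.16 to 10.32. The other 7 uteri had Msx1 at 9.69 to 11.31 and Elf3 at 11.27 or above. Krt7, a keratin of simple and ductal epithelium, fell into the same sets of uteri, at 9.21 to 10.20 in the first 5 and at 11.44 or above in the other 7, and its difference in Cdh1_P53_cKO minus CO was 1.70 ± 0.75, with an adjusted p of 0.274. All 3 Cdh1_P53_cKO uteri were in the set of 7, with 2 of 3 Cdh1_cKO, 1 of 3 P53_cKO and 1 of 3 CO uteri. The sets were read from the values themselves, so no test was made of them, and the cycle stage of each uterus is unknown here. A second, dimmer probe of Msx1 gave -1.20 in Cdh1_P53_cKO minus CO, close to the first, but -0.68 in P53_cKO minus CO, where the first gave 0.27. The first probe's P53_cKO difference also turned negative without P53_cKO replicate 1, P53_cKO replicate 3 or CO replicate 3, and was lowest, at -0.13, without P53_cKO replicate 3.

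**Figure D3:**
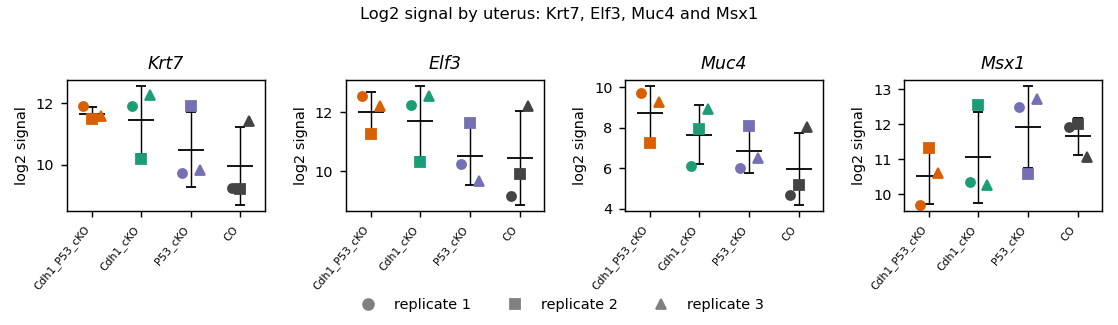
Log2 signal (vertical axis) of Krt7, Elf3, Muc4 and Msx1 in each uterus by group (horizontal axis), with markers for replicates 1 to 3 and bars for the mean and SD of 3 uteri. The 5 uteri that are low for Krt7 and Elf3 are the 5 that are high for Msx1, and they belong to Cdh1_cKO, P53_cKO and CO.

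Klf5, a zinc-finger factor that binds GC-rich DNA, had group means of 10.77 ± 0.21, 10.59 ± 0.32, 10.55 ± 0.30 and 10.30 ± 0.17 (SD, n = 3 each) in Cdh1_P53_cKO, Cdh1_cKO, P53_cKO and CO uteri. All Cdh1_P53_cKO uteri were above all CO uteri, but the difference of 0.47 ± 0.21 had an adjusted p of 0.297.

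Promoters are shown for Spint1 and Spint2, the inhibitors whose CO uteri lay below both groups labelled as Cdh1 knock-out, and for Msx1, whose difference ran the other way. Each is the 250 bases before a transcript start listed in RefSeq, build GRCm38.p6, read 5′ to 3′ on the gene's strand, and capitals mark the GC box GGGCGG or its reverse complement CCGCCC. The windows are chr2:119237110-119237359 on the plus strand for Spint1, chr7:29281978-29282227 on the minus strand for Spint2 and chr5:37824586-37824835 on the minus strand for Msx1.
Spint1: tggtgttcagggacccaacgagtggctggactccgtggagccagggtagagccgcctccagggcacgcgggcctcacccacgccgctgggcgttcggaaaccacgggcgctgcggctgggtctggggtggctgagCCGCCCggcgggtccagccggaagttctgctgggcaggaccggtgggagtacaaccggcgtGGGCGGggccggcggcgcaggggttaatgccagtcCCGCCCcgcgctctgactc
Spint2: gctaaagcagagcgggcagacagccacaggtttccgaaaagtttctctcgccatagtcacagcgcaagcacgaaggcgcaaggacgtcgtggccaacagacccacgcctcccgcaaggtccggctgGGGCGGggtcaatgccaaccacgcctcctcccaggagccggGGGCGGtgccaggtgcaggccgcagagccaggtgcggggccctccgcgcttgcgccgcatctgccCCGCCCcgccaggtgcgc
Msx1: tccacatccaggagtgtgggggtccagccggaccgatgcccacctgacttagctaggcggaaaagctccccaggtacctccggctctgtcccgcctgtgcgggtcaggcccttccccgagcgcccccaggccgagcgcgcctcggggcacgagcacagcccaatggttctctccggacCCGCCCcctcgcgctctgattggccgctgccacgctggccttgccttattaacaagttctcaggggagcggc
Spint1 and Spint2 held 3 GC boxes each and Msx1 held 1. The window of F11r, whose Cdh1_P53_cKO uteri also lay above all CO uteri, is not shown and held 1. The Spint1 and Msx1 windows end where the annotated gene begins, whereas the last 82 bases of the Spint2 window, with 1 of its GC boxes, lie inside the annotated gene. The RefSeq table matched 24 of the 38 genes, with 31 windows in all, and the GC box was in 58.1% of them, against 32.7% of 32851 windows of the same length over all genes. An ETS motif was searched only as the letters AGGAAG, or CTTCCT on the other strand, which do not overlap the GC box letters. These letters were in 29.0% of the 31 windows, against 29.5% of all windows, and in none of the 3 shown. Other forms of the ETS site were not searched, so the windows may hold them. These matches describe letters in a window and carry no test.

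Among the hemidesmosome parts and matrix receptors, Itgb6 had the smallest p of the set against P53_cKO. This gene encodes the integrin beta chain that, with an alpha v chain, activates latent TGF-beta on epithelium. Its log2 signal was 10.73, 10.09 and 10.85 in Cdh1_P53_cKO uteri, 8.52, 9.44 and 9.92 in Cdh1_cKO uteri, 9.18, 8.66 and 8.89 in P53_cKO uteri, against 8.27, 8.64 and 9.84 in CO uteri. Every Cdh1_P53_cKO uterus was above all 9 others, and CO replicate 3 and Cdh1_cKO replicate 3 came next. The difference was 1.64 ± 0.43 against CO, with an adjusted p of 0.0745. Against P53_cKO it was 1.65 ± 0.43, with an adjusted p of 0.105, and against Cdh1_cKO 1.26 ± 0.43, with an adjusted p of 0.431. Other probes of Itgb6 that were detected on all arrays gave 1.44 and 1.73 against CO.

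Lamb3, a chain of laminin-332 in the basement membrane, had a log2 signal of 10.19, 9.57 and 9.82 in Cdh1_P53_cKO uteri, 10.87, 9.48 and 9.86 in Cdh1_cKO uteri, 8.94, 9.71 and 9.46 in P53_cKO uteri, against 8.35, 8.85 and 9.86 in CO uteri. Cdh1_cKO replicate 1 was the highest uterus, and the CO range overlapped with each knock-out group. The difference was 1.05 ± 0.43 in Cdh1_cKO minus CO, with an adjusted p of 0.513, and 0.84 ± 0.43 in Cdh1_P53_cKO minus CO, with an adjusted p of 0.348. In Cdh1_cKO it ran from 0.65 without Cdh1_cKO replicate 1 to 1.47 without CO replicate 3. Itgb4, the integrin chain of the hemidesmosome, had group means between 9.94 and 10.25 and overlapped across all groups.

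Of the 6 tested desmosome genes and plakins, 6 had a positive difference in Cdh1_P53_cKO minus CO, 5 in Cdh1_cKO minus CO and 5 in P53_cKO minus CO. Pkp1, counted in each, passed the detection filter only through knock-out arrays, so its signs are not independent of the filter. Pkp2 encodes plakophilin 2, which links desmosomal cadherins to desmoplakin, and its log2 signal was 9.87, 9.33 and 9.46 in Cdh1_P53_cKO uteri, 9.20, 9.32 and 9.89 in Cdh1_cKO uteri, 8.86, 9.27 and 8.82 in P53_cKO uteri, against 8.01, 8.32 and 9.37 in CO uteri. CO replicate 3 lay above the lowest uterus of each knock-out group, and CO replicates 1 and 2 lay below all 9 knock-out uteri. The difference from CO was 0.99 ± 0.33 in Cdh1_P53_cKO, with an adjusted p of 0.150, and 0.91 ± 0.33 in Cdh1_cKO, with an adjusted p of 0.464. Pkp3, a plakophilin of simple and stratified epithelium, had the same shape, with 8.03, 7.65 and 7.65 in Cdh1_P53_cKO uteri, 7.44, 7.26 and 7.76 in Cdh1_cKO uteri, 6.95, 7.57 and 6.91 in P53_cKO uteri, against 6.11, 6.42 and 7.73 in CO uteri, and its difference in Cdh1_P53_cKO minus CO was 1.03 ± 0.37, with an adjusted p of 0.177.

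For Dsg2, the desmosomal cadherin of simple epithelium, the log2 signal was 10.20, 9.17 and 9.65 in Cdh1_P53_cKO uteri, 9.68, 9.65 and 10.20 in Cdh1_cKO uteri, 9.80, 9.68 and 9.66 in P53_cKO uteri, against 8.83, 8.98 and 9.99 in CO uteri. The P53_cKO uteri were close to each other and lay between CO replicate 2 and CO replicate 3. The difference was 0.45 ± 0.33 in P53_cKO minus CO, with an adjusted p of 0.9995, and 0.41 ± 0.33 in Cdh1_P53_cKO minus CO, with an adjusted p of 0.587. Leaving out 1 array moved the first of these between 0.23 and 0.81, and the second between 0.15 and 0.77.

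Ppl encodes periplakin, a plakin of cell borders, and it had a log2 signal of 8.78, 8.54 and 8.56 in Cdh1_P53_cKO uteri, 8.28, 8.31 and 8.59 in Cdh1_cKO uteri, 8.38, 7.92 and 8.23 in P53_cKO uteri, against 8.37, 8.53 and 8.30 in CO uteri. It varied little, with the Cdh1_P53_cKO uteri just above the CO uteri and the P53_cKO uteri reaching below them. The difference was 0.22 ± 0.17 in Cdh1_P53_cKO minus CO, with an adjusted p of 0.553, and -0.23 ± 0.17 in P53_cKO minus CO, with an adjusted p of 0.9995. A dimmer probe of Ppl, detected on 12 arrays, gave 0.44 and 0.16 for these comparisons. Another, detected on 11 arrays, gave 0.31 and 0.01. The sign in P53_cKO minus CO thus differed between probes.

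Evpl, the partner plakin envoplakin, had group means between 7.53 and 8.08, and its highest uterus was Cdh1_cKO replicate 3. Pkp1, a plakophilin of stratified epithelium, was detected on 3 of 3 Cdh1_P53_cKO arrays, 2 of 3 Cdh1_cKO, 2 of 3 P53_cKO and 0 of 3 CO arrays. Its log2 signal was 7.32 in Cdh1_cKO replicate 3, against at most 5.50 in the other 11 uteri. With CO below detection, its mean in Cdh1_cKO was at least 1.81-fold that in CO, with an adjusted p of 0.633 in limma. That bound is a description, since only knock-out arrays brought the probe through the filter. The other 2 Cdh1_cKO uteri were at 4.68 and 5.17.

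The 4 tight junction genes detected on all arrays, Ocln, F11r, Tjp1 and Tjp3, had positive differences in Cdh1_P53_cKO uteri from each of the other groups, and none was called. Ocln encodes occludin, a membrane protein of the tight junction strand, and it had a log2 signal of 7.37, 7.40 and 7.66 in Cdh1_P53_cKO uteri, 6.90, 6.91 and 6.69 in Cdh1_cKO uteri, 7.03, 6.55 and 6.91 in P53_cKO uteri, against 6.37, 6.65 and 7.03 in CO uteri. The Cdh1_P53_cKO uteri were the top 3 of the 12, and the 3 other groups overlapped. The difference was 0.80 ± 0.20 against CO, with an adjusted p of 0.0613, the smallest of the set. It was 0.64 ± 0.20 against Cdh1_cKO, with an adjusted p of 0.357, and 0.65 ± 0.20 against P53_cKO, with an adjusted p of 0.178.

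F11r encodes JAM-A, an adhesion molecule of the tight junction, and its log2 signal was 10.11, 9.29 and 9.64 in Cdh1_P53_cKO uteri, 8.42, 10.22 and 9.57 in Cdh1_cKO uteri, 9.42, 9.08 and 8.76 in P53_cKO uteri, against 8.10, 8.38 and 8.87 in CO uteri. All Cdh1_P53_cKO uteri were above all CO uteri, whereas 1 uterus of each single knock-out lay within the CO range. The difference from CO was 1.23 ± 0.41 in Cdh1_P53_cKO, with an adjusted p of 0.148, 0.95 ± 0.41 in Cdh1_cKO, with an adjusted p of 0.546, and 0.64 ± 0.41 in P53_cKO, with an adjusted p of 0.9995. The Cdh1_cKO difference was 0.54 without Cdh1_cKO replicate 2 and 1.44 without Cdh1_cKO replicate 1.

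Cgn encodes cingulin, which ties the tight junction to the cytoskeleton, and its probe was close to the detection limit, with 5.14, 4.998 and 5.04 in Cdh1_P53_cKO uteri, 4.69, 4.53 and 4.94 in Cdh1_cKO uteri, 4.55, 4.58 and 4.56 in P53_cKO uteri, against 4.67, 4.57 and 4.72 in CO uteri. It was detected on 3 of 3 Cdh1_P53_cKO arrays, 1 of 3 Cdh1_cKO, 0 of 3 P53_cKO and 0 of 3 CO arrays. Its mean in Cdh1_P53_cKO was at least 1.14-fold that in CO and at least 1.13-fold that in P53_cKO, given as a description, since the probe was kept because of its detection in Cdh1_P53_cKO. These bounds take the lowest detected signal of each array where it exceeded the probe's own. Tjp1 and Tjp3 encode the scaffolds ZO-1 and ZO-3, and their differences in Cdh1_P53_cKO minus CO were 0.34 ± 0.21 and 1.08 ± 0.62, with overlapping groups.

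The 4 polarity and sorting genes had positive differences in Cdh1_P53_cKO minus CO, and the groups overlapped for each. Rab25, a small GTPase of apical recycling, had a difference of 0.69 ± 0.37, with an adjusted p of 0.374. Ap1m2, the epithelial subunit of the adaptor AP-1B that sorts proteins to the basolateral membrane, had a difference of 0.59 ± 0.27, with an adjusted p of 0.306. Crb3 and Pard6b, from the apical Crumbs and Par complexes, were dim, with group means of 5.04 to 5.57, and gave 0.40 ± 0.28 and 0.29 ± 0.20.

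Against the single knock-outs, the Cdh1_P53_cKO uteri separated for few of these genes. In Cdh1_P53_cKO minus Cdh1_cKO none of the 32 was called, against 0.492% of all genes, and 3 had an unadjusted p below 0.05, against 8.16% of all genes. For St14, Itgb6, Ocln and Cgn, 4 of the 32, all Cdh1_P53_cKO uteri were above all Cdh1_cKO uteri, against 5.85% of all genes. Without Cgn, which the filter kept through Cdh1_P53_cKO, these counts were 2 and 3 of 31. In Cdh1_P53_cKO minus P53_cKO none was called, against 1.44% of all genes, and 6 had an unadjusted p below 0.05, against 13.3% of all genes. There 7 of the 32 did not overlap and were higher in Cdh1_P53_cKO, against 10.4% of all genes: St14, Itgb6, Pkp2, Pkp3, Ppl, Ocln and Cgn. Without Cgn the counts were 5 and 6 of 31. The median difference was 0.18 in Cdh1_P53_cKO minus Cdh1_cKO, and 0.45 in Cdh1_P53_cKO minus P53_cKO. The 6 uteri compared in each case exclude the CO group, so CO replicate 3 enters only the shared estimate of spread.

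The comparison with CO turned on CO replicate 3. For 26 of the 32 genes, CO replicates 1 and 2 were both below every Cdh1_P53_cKO uterus, while CO replicate 3 reached at least the lowest Cdh1_P53_cKO uterus for 19 of the 32. The median SD of the 32 genes was 0.31 in Cdh1_P53_cKO, 0.41 in Cdh1_cKO, 0.28 in P53_cKO and 0.58 in CO uteri, whereas the median SD over all genes was 0.25, 0.33, 0.24 and 0.22 in the same groups.

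CO replicate 3 was singled out by its high signals for these same genes. Leaving it out therefore raises most differences and narrows the CO spread, so the calls below only describe dependence on a single uterus. When CO replicate 3 was left out, limma called 9 of the 32 genes in Cdh1_P53_cKO minus CO, all higher in Cdh1_P53_cKO, against 4.54% of all genes. These were St14, Pkp3, Itgb6, Pkp2, Ocln, Tjp3, Ap1m2, Spint1 and Spint2, so they came from the protease, desmosome, tight junction, integrin and sorting groups, and none was a keratin. St14 was 2.22 ± 0.25 higher, with an adjusted p of 0.00156 in limma, and Pkp3 was 1.51 ± 0.25 higher, with an adjusted p of 0.0130. The other 7 had adjusted p-values of 0.0198 to 0.0407, and differences of 0.93 (Ap1m2) to 2.10 (Itgb6). Muc4 followed at 3.81 ± 0.94, with an adjusted p of 0.0511, and Krt18 at 1.02 ± 0.25, with an adjusted p of 0.0525. The median difference over the 32 was then 0.94, with 31 above 0. Single genes moved as well: with each array of the compared groups left out in turn, 18 of the 32 differences in Cdh1_P53_cKO minus CO changed by over 1.5 times at least once, with 28 in Cdh1_cKO minus CO and 30 in P53_cKO minus CO. The sign turned at least once for 3, 10 and 10 of the 32 in these comparisons.

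Without CO replicate 3 the median difference in Cdh1_cKO minus CO was 0.88, and St14 was called at 1.51 ± 0.25, with an adjusted p of 0.0416, as 1 of the 32 against 0.312% of all genes. In P53_cKO minus CO the median was 0.66, and none was called. When Cdh1_P53_cKO replicate 1 was left out together with CO replicate 3, a setting added after the data were seen, 3 of the 32 were called in Cdh1_P53_cKO minus CO, against 2.46% of all genes, namely St14, Pkp3 and Ocln. Leaving out Cdh1_P53_cKO replicate 1 alone gave a median difference of 0.46 and no call. In Cdh1_cKO minus CO the count without both uteri was 1 of the 32, St14, against 0.426% of all genes.

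The weight given to single arrays also mattered. With array weights in the limma model, 20 of the 32 were called in Cdh1_P53_cKO minus CO, against 34.5% of all genes, and 13 in Cdh1_P53_cKO minus P53_cKO, against 30.1% of all genes. With the arrays of the Cdh1_P53_cKO and P53_cKO groups alone in the fit, Itgb6 and St14 were called between these groups, 2 of the 32 against 1.36% of all genes.

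**Figure D4:**
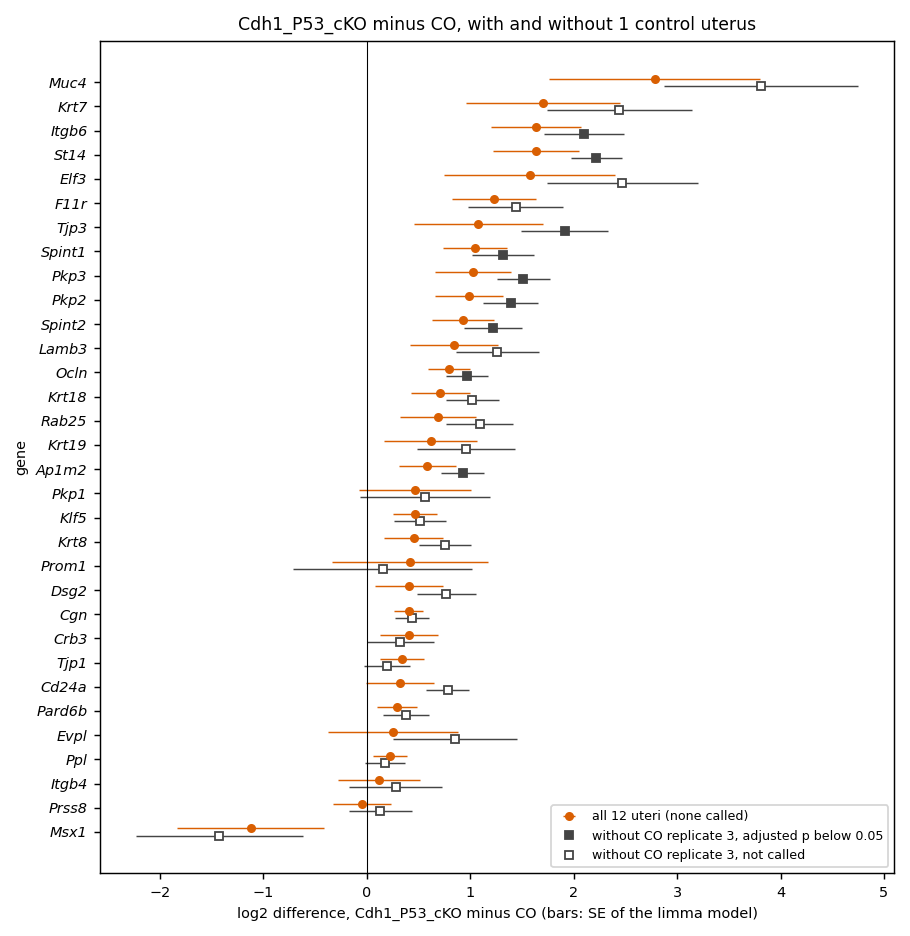
Log2 difference, Cdh1_P53_cKO minus CO (horizontal axis), of each of the 32 genes (rows), with all 12 uteri and without CO replicate 3; bars are standard errors of the limma model and dark filled squares mark the 9 genes with an adjusted p below 0.05. The median difference is 0.60 with all uteri and 0.94 without that uterus. CO replicate 3 was singled out by its high signals for these same genes, so the filled squares only describe dependence on it.

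The junction genes were also set against the simple epithelium genes of the same uterus. Per uterus, the mean of the desmosome genes minus the mean of the simple epithelium genes, both centred on the 12 uteri, averaged -0.19 ± 0.31 in Cdh1_P53_cKO, -0.11 ± 0.44 in Cdh1_cKO, 0.05 ± 0.28 in P53_cKO and 0.25 ± 0.23 in CO uteri (log2, SD, n = 3 each). For the tight junction genes it averaged 0.04 ± 0.20 in Cdh1_P53_cKO, -0.29 ± 0.60 in Cdh1_cKO, -0.02 ± 0.47 in P53_cKO and 0.27 ± 0.37 in CO uteri. The polarity genes gave -0.10 ± 0.20 in Cdh1_P53_cKO, -0.27 ± 0.30 in Cdh1_cKO, -0.03 ± 0.28 in P53_cKO and 0.40 ± 0.41 in CO uteri. The knock-out groups overlapped with CO in each case, and no test was made of these means. The simple epithelium mean includes Muc4 and Krt7, which differed by 2.78 and 1.70 in Cdh1_P53_cKO minus CO. Krt8, Krt18 and Krt19 differed by 0.45, 0.71 and 0.62 there, and means against these keratins alone were not computed. The junction and polarity means include dim probes, such as those of Pkp1, Cgn, Crb3 and Pard6b.

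Among other epithelial genes, 3 passed the test. Of 59 further genes of desmosomes, hemidesmosomes, tight junctions, polarity and epithelial identity, 52 had a probe and 40 were tested, and in Cdh1_P53_cKO minus CO 25 of the 40 were above 0, with a median of 0.15. Limma called 3 of the 40, all higher in Cdh1_P53_cKO, against 2.73% of all genes called in either direction. Cldn4, a claudin of the tight junction, had a log2 signal of 11.80, 11.78 and 12.06 in Cdh1_P53_cKO uteri, 11.25, 10.67 and 10.54 in Cdh1_cKO uteri, 9.67, 9.03 and 10.14 in P53_cKO uteri, against 9.45, 9.50 and 9.30 in CO uteri. All 3 Cdh1_P53_cKO uteri were above the other 9, and the difference was 2.47 ± 0.27 against CO, a 5.53-fold increase with an adjusted p of 8.53e-04, and 2.27 ± 0.27 against P53_cKO, with an adjusted p of 0.00243. Against Cdh1_cKO it was 1.07 ± 0.27, with an adjusted p of 0.187, and did not pass. Nor did Cldn4 pass in Cdh1_cKO minus CO, at 1.40 ± 0.27 with an adjusted p of 0.224, or in P53_cKO minus CO, at 0.20 ± 0.27 with an adjusted p of 0.9995.

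Itga3, the integrin alpha chain that binds laminin-332, had a log2 signal of 9.93, 10.48 and 10.30 in Cdh1_P53_cKO uteri, 9.81, 9.66 and 9.21 in Cdh1_cKO uteri, 9.17, 9.11 and 9.32 in P53_cKO uteri, against 8.30, 8.66 and 9.05 in CO uteri. Every Cdh1_P53_cKO uterus was again above the other 9, and the difference from CO was 1.57 ± 0.23, with an adjusted p of 0.00550. Grhl1, a grainyhead-like transcription factor of epithelium, had a log2 signal of 6.87, 7.09 and 7.17 in Cdh1_P53_cKO uteri, 6.42, 5.89 and 6.97 in Cdh1_cKO uteri, 6.18, 6.12 and 6.41 in P53_cKO uteri, against 5.72, 5.56 and 6.03 in CO uteri. It rose by 1.27 ± 0.25 in Cdh1_P53_cKO, with an adjusted p of 0.0233, and only Cdh1_cKO replicate 3 reached the Cdh1_P53_cKO range. With 1 array left out its adjusted p ran from 0.0249 to 0.114, and the call was lost without CO replicate 1, CO replicate 2, Cdh1_P53_cKO replicate 2 or Cdh1_P53_cKO replicate 3. Cldn4 and Itga3 stayed called without any 1 of the 6 arrays. A further 6 of the 40 had an unadjusted p below 0.05 without passing: Muc1, a membrane mucin, Marveld3 and Lsr of the tight junction, the epithelial factor Ovol1 and Llgl2 of basolateral polarity, with differences of 0.63 (Llgl2) to 2.18 (Muc1), and Cdh1. For Cdh1 the difference was -1.33 ± 0.45 in Cdh1_P53_cKO minus CO, with an adjusted p of 0.154, the opposite sign to most of the set. The 15 genes below 0 reached down to -1.81 ± 0.91 for the keratin Krt23, with an adjusted p of 0.348, and Jam2, an adhesion molecule of junctions, was at -0.93 ± 0.66, with an adjusted p of 0.531. Of the 40, none was called in Cdh1_cKO minus CO, where the median was 0.16, or in P53_cKO minus CO, where it was 0.04.

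Markers of other cell types also had unlike sums in these groups, which were not tested. The summed signal of 10 neutrophil markers, all detected, was 5625 to 10975 in Cdh1_P53_cKO, 719 to 2638 in Cdh1_cKO, 565 to 2512 in P53_cKO and 756 to 1101 in CO uteri. That of 9 macrophage markers was 26828 to 27711 in Cdh1_P53_cKO, 8941 to 12567 in Cdh1_cKO, 6342 to 10361 in P53_cKO and 4447 to 9162 in CO uteri. In contrast, 12 stroma markers summed to 42751 to 45421 in Cdh1_P53_cKO, 35940 to 48155 in Cdh1_cKO, 48126 to 56224 in P53_cKO and 52967 to 56753 in CO uteri. Thus leukocyte sums were higher and the stroma sum was lower in every Cdh1_P53_cKO uterus than in any CO uterus. Single stroma markers were less uniform, with 9 of 12 below 0 and 0 called, against 2.73% of all genes. Without overlap, 1 of the 12 was lower and 1 higher, against 14.2% and 11.5% of all genes. The centred stroma median was 0.02 in Cdh1_P53_cKO replicate 2 and -0.07 in CO replicate 3, so it did not separate the groups.

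Squamous markers, with Krt5, Krt6a, Sprr1b and Krt1 undetected, summed to 2402 to 10165 in Cdh1_P53_cKO, 1338 to 30493 in Cdh1_cKO, 1049 to 2480 in P53_cKO and 956 to 1414 in CO uteri. Oviduct and ciliated markers, of which 5 of 10 were detected, summed to 497 to 10449 in Cdh1_P53_cKO, 721 to 1399 in Cdh1_cKO, 1710 to 3845 in P53_cKO and 2674 to 5980 in CO uteri. Endothelium markers, all 8 detected, summed to 4405 to 5861 in Cdh1_P53_cKO, 5141 to 6773 in Cdh1_cKO, 6219 to 7912 in P53_cKO and 5572 to 9928 in CO uteri. In Cdh1_P53_cKO minus CO, 6 of the 8 were below 0, with a median of -0.86, and for 5 of the 8 every Cdh1_P53_cKO uterus was below every CO uterus, against 14.2% of all genes. Limma called 1 of the 8, Cdh5, which encodes VE-cadherin, at -1.11 ± 0.24 with an adjusted p of 0.0331, against 2.73% of all genes; of the settings with 1 array left out, only that without CO replicate 3 kept the call. Vwf, which encodes von Willebrand factor, went the other way, at 1.06 ± 0.32 with an adjusted p of 0.113. Sums for smooth muscle, gland, mesothelium and proliferation markers overlapped between Cdh1_P53_cKO and CO uteri.

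CO replicate 3 also differed from CO replicates 1 and 2 in several of these sums. The endothelium sum was 5572 in CO replicate 3, against 9182 and 9928 in CO replicates 1 and 2, and the macrophage sum was 4447, against 9162 and 7507. Its oviduct and ciliated sum was 2674, against 5980 and 5280, while its proliferation sum was 8291, against 3696 and 4168. The stroma sum, at 52967, was close to those of the other CO uteri. The part of these cell types in the values of the epithelial genes was not tested.

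**Figure D5:**
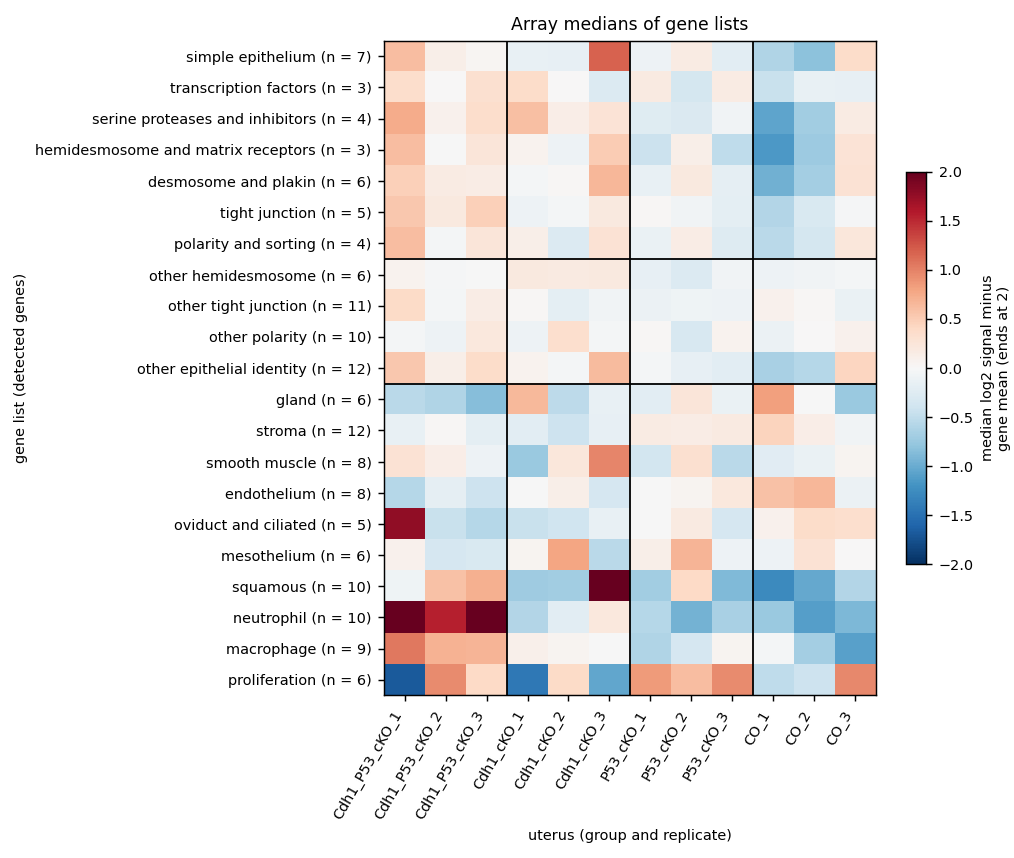
Median log2 signal, centred on each gene's mean over 12 uteri, of the gene roles in the set, of other epithelial lists and of cell type marker lists (rows) in each uterus (columns, by group). Most roles are low in CO replicates 1 and 2, while neutrophil and macrophage lists are high in all 3 Cdh1_P53_cKO uteri.

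Of the 6 genes without a tested probe, Dsp, which encodes desmoplakin, had no probe of its symbol in the annotation used here. Epcam, an epithelial adhesion molecule, Msx2, a homeobox factor, Dsc2, a desmosomal cadherin, and Marveld2, which encodes tricellulin, were detected on 0 of 12 arrays, and Ehf, an ETS-family factor, on 1 of 12. Krt8, Krt18, Krt19 and Cdh1 were detected on all 12 arrays, so the epithelial label rests on these and not on Epcam.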

How the data were processed

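RNA from 12 uteri was measured on Illumina bead arrays. Per the file headers, the authors deposited an intensity per probe and array without normalization, with a detection p-value, a number of beads and a bead standard error. The standard errors (12 columns) were left unused. The authors also deposited processed log2 values, for which the submitters' processing notes name limma 3.10.2 and no other step was stated in the sources used here. Columns of that matrix had medians of 4.72 and differed from the values computed here by at most 0.0234, which settles its scale, with no centring on genes and no ratio.

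Intensities were background corrected and quantile normalised with neqc of limma 3.58.1 (R 4.3.3, detection p-values, offset 16). The platform annotation gave 1 gene symbol to 34885 of 45281 probes. A probe was kept where at least 3 of 12 arrays had a detection p below 0.05, and the probe with the highest mean processed value stood for each gene, which left 12194 genes. All 12 arrays entered 1 limma model, which had 1 mean for each of the 4 groups and was moderated with eBayes (8 residual degrees of freedom, prior 2.84). The 2-sided p-values of 6 contrasts were adjusted by Benjamini-Hochberg over all 12194 genes, with 0.05 as the threshold for a call. Adjusted p-values come from this model, except those given without named arrays, for which the model was refitted to the remaining arrays. Errors beside differences are its standard errors, and those beside means are SDs. The number of arrays limits the precision.

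The genes and the lists of other genes and markers were chosen with earlier results of these data known, so no list was tested as a set. Named genes were the 6 with the smallest p in each contrast with CO, the 3 with the smallest p in each other contrast, and Krt8, Krt18, Krt19, Ocln and Msx1 for their roles. The script was tested on simulated data. No label pairs the uteri by replicate number, and the model took them as unpaired. Deviations of same-numbered uteri had a median correlation of -0.04 over 18 pairs, with 3 over 0.1. These 3 were all between Cdh1_cKO and CO uteri, at 0.22, 0.33 and 0.30. Different-numbered pairs of these groups ran from -0.27 to -0.06, so whether the uteri were paired is unknown. Alternatives covered the authors' log2 values, background correction, the detection filter, averaging of probes, array weights, the arrays in the fit, a replicate block and leaving out each array. Promoters came from RefSeq.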

Additional observations from a re-analysis of the deposited data

How the results depend on the processing

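Without CO replicate 3, the number of genes called in Cdh1_P53_cKO minus CO was 9, and in Cdh1_cKO minus CO it was 1, where all 12 arrays gave 0. Leaving out each array in turn gave 0 to 9 in Cdh1_P53_cKO minus CO, 0 to 1 in Cdh1_cKO minus CO and 0 to 0 in the other 4 comparisons, and only CO replicate 3 moved a count. The medians then ran from 0.46 to 0.94, from 0.29 to 0.88 and, for P53_cKO minus CO, from 0.11 to 0.66. Without both CO replicate 3 and Cdh1_P53_cKO replicate 1, chosen after the data were seen, the counts were 3 and 1. Array weights gave 20 in Cdh1_P53_cKO minus CO (19 higher, 1 lower) and 13 in Cdh1_P53_cKO minus P53_cKO, where they called 34.5% and 30.1% of all genes; the weights ran from 0.340 to 11.7 and their estimation stopped before convergence. With the arrays of the groups compared alone, Itgb6 and St14 were called in Cdh1_P53_cKO minus P53_cKO, a count of 2 with 1.36% of all genes called. The replicate block gave 0 in all 6 comparisons. In each case the cause was not tested. The 31 differences picked by the naming rule kept their sign in the alternatives run for them, where 17 values passed the threshold and 427 stayed on the same side. Over all 32 genes, with each array left out in turn, the sign of 3 (Cdh1_P53_cKO minus CO), 10 (Cdh1_cKO minus CO), 10 (P53_cKO minus CO), 16 (Cdh1_P53_cKO minus Cdh1_cKO), 6 (Cdh1_P53_cKO minus P53_cKO) and 17 (interaction) differences turned at least once. One was Msx1 in P53_cKO minus CO, at -0.13 to 0.94 against 0.27 with all arrays, and its second probe gave -0.68. Probes near background, such as Cgn and Pkp1, have only bounds in CO.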
